A study of Mus musculus with 29 samples.

Results

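The genotypes were compared here at 12 months of age in the caudate nucleus. It belongs to the striatum, which loses neurons in Huntington's disease. The arrays were chosen by their titles: 6 HdhQ150 mice (4 labelled female, 2 male) and 5 wild-type mice (4 female, 1 male), 11 of the 29 arrays of the series, with 1 mouse on each. HdhQ150 is a knock-in strain with an expanded CAG repeat in the mouse huntingtin gene, Htt. All mice shared a mixed strain background, written 129/Ola x C57BL6/J in the labels, and the labels name no treatment. The labels do not say whether the HdhQ150 mice carried 1 or both altered alleles, nor at what hour tissue was taken. The other 18 arrays, 10 from 6 months and 8 from 18 months, entered the fit as their own groups. Comparisons cover 19938 genes, those with a probe set that carries 1 gene symbol.

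Most neurons of the caudate are striatal projection neurons, which release GABA. They come in a direct pathway class, marked by the D1 dopamine receptor, substance P and dynorphin, and an indirect pathway class, marked by the D2 receptor and enkephalin. In Huntington's disease mutant huntingtin harms these cells, those of the indirect pathway early, and the RNA of many of their signalling genes is known to fall in patients and in mouse models.

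Values are log2 expression levels from the authors' table, so that a difference of 1 is a doubling. They ran from 1.08 to 14.11, with array medians from 6.91 to 7.05. One array stood apart. The mean correlation of wild-type mouse WT-454 with the other 12-month wild-type mice was 0.959, against 0.982 to 0.986 for those 4 and 0.990 to 0.991 within the HdhQ150 group. WT-454 is also the only male among the 5 wild-type mice, so that its sex and its array cannot be told apart there. Results are given with it and without it. At 6 months, 1 HdhQ150 mouse labelled female, 1023, did not match its label by its sex-linked genes. This touches the 12-month differences through the sex term of the fit, and their SE and p-values also through the spread shared by all arrays. With that mouse entered as male 184 genes passed at 12 months, and with it left out 197, against 187 as labelled. Genes that define striatal projection neurons were high in all 11 mice: Ppp1r1b lay at 11.28 to 11.54 in HdhQ150 mice and 11.56 to 11.76 in wild type, and Penk at 12.11 to 12.46 and 12.66 to 12.81. Markers of cortical excitatory neurons were present too and varied from mouse to mouse. The vesicular glutamate transporter Slc17a7 lay at 6.82, 8.80 and 10.33 (lowest, median and highest) in HdhQ150 mice. It lay at 10.06, 10.79, 8.88, 8.84 and 10.12 in the wild-type mice. The groups overlapped. Where this RNA came from, and its part in the results, was not tested.

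At 12 months 187 genes passed the threshold, a Benjamini-Hochberg adjusted p under 0.05 in limma (0.938% of 19938 genes). In HdhQ150 mice 67 were higher (0.336%) and 120 were lower (0.602%), while 1790 genes had an unadjusted p under 0.05. The changes were modest in size. The median difference was 0.31 among the genes that rose, -0.38 among those that fell and 0.0059 over all genes. A change of 1.5-fold or more was reached by 17 genes that fell and 0 that rose, and a 2-fold change by 5 that fell. For 136 of the 187, the 6 HdhQ150 mice did not overlap the 5 wild-type mice. Over all genes 137 had every HdhQ150 mouse above every wild-type mouse (0.687%) and 181 had every HdhQ150 mouse below (0.908%). Without WT-454 the count past the threshold was 440, with 153 higher and 287 lower. Of the 187 genes 155 passed there as well, and 0 changed sign.

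**Figure D1:**
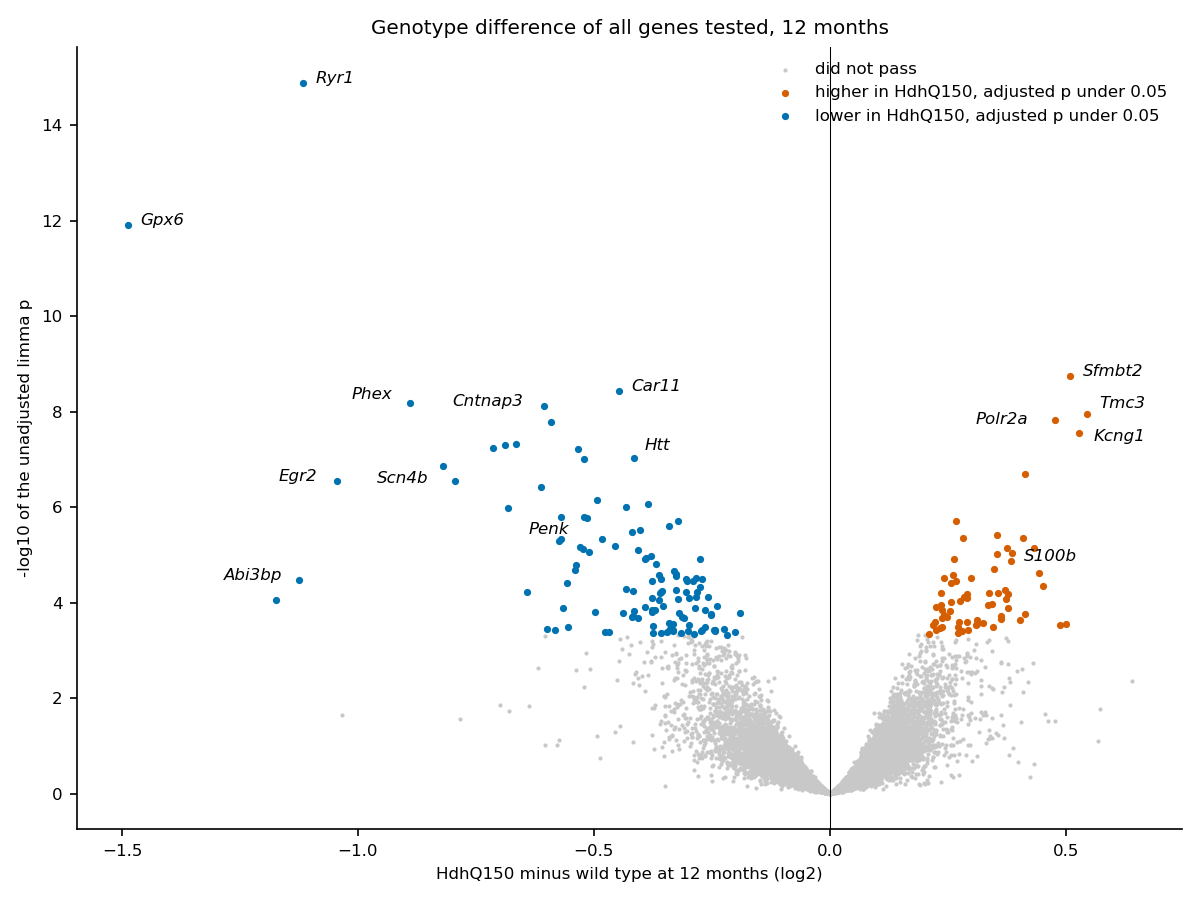
The genotype difference at 12 months (x axis, log2, HdhQ150 minus wild type) against -log10 of the unadjusted limma p (y axis) for each of 19938 genes, with the 187 genes past an adjusted p of 0.05 in colour. Differences below 0 reach farther from 0, to -1.49 for Gpx6, than those above it, which end at 0.54 for Tmc3 among the genes that passed.

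In what follows a gene's level in HdhQ150 mice is given as the lowest, the median and the highest of 6 mice. Wild-type levels are given mouse by mouse, in the order WT-454, WT-461, WT-488, WT-508 and WT-527. Differences are HdhQ150 minus wild type on the log2 scale, with the standard error (SE) and adjusted p of the limma fit, and mice without a prefix are HdhQ150 mice. Where a gene missed the threshold without certain mice, the mice named are those of 12 months. Levels of different genes come from different probes and are not compared. Each count of list members that passed is to be read beside the share over all genes, 0.602% lower and 0.336% higher. Counts of list members at an unadjusted limma p under 0.05 are to be read beside 1790 of all 19938 genes. The RNA came from whole tissue, so that fewer cells of a type and less RNA per cell cannot be told apart.

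Htt, the gene that carries the repeat, was lower in HdhQ150 mice. Its level was 8.50, 8.65 and 8.80 in HdhQ150 mice and 8.87, 9.14, 9.13, 9.07 and 9.20 in wild type. The HdhQ150 mice all lay below the wild-type mice, with WT-454 the nearest. The difference was -0.42 (SE 0.0589, limma adjusted p = 0.000122) and -0.46 without WT-454. Of 22 measured genes for partners of huntingtin and for the transport along axons that it takes part in, Htt was the only one to pass, and the median of the list was -0.017, -0.089 without WT-454.

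**Figure D2:**
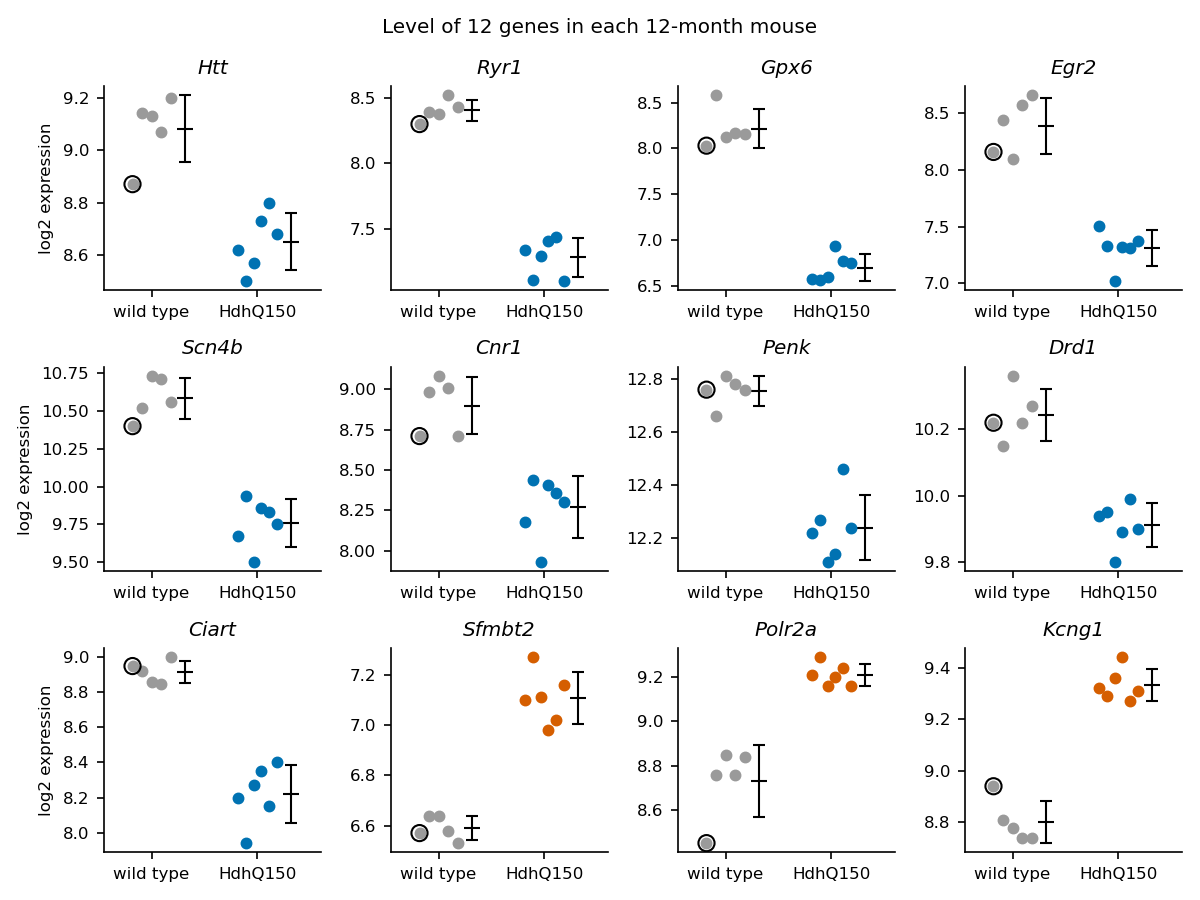
Log2 expression (y axis) of 12 genes in each 12-month mouse, wild type in grey and HdhQ150 in colour (blue where lower, orange where higher), with the mean and SD beside the points and a ring around WT-454. Each panel has its own axis that does not start at 0, and in each of the 12 panels the groups do not overlap.

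Genes shared by both classes of projection neuron lay lower in HdhQ150 mice. Of 27 measured markers 6 fell, 0 rose and all 27 differences were below 0, with a median of -0.26 against 0.0059 over all genes. For 12 of the 27 the HdhQ150 mice all lay below the wild-type mice. Over all genes 0.908% had every HdhQ150 mouse below and 0.602% fell past the threshold. Without WT-454 the median was -0.26 and 9 fell, with Rgs9, Arpp19 and Strn added. The number past ran from 4 to 9 when mice were left out in turn.

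Scn4b, an auxiliary subunit of sodium channels that is abundant in these cells, had the largest fall on the list. Its level was 9.50, 9.79 and 9.94 in HdhQ150 mice and 10.40, 10.52, 10.73, 10.71 and 10.56 in wild type. The difference was -0.82 (SE 0.119, limma adjusted p = 0.000164), 1.76-fold, and the groups did not overlap. Cnr1, the cannabinoid receptor that projection neurons carry on their terminals, lay at 7.93, 8.33 and 8.44 against 8.71, 8.98, 9.08, 9.01 and 8.71. It fell by 0.61 (SE 0.0939, limma adjusted p = 0.000368), and all 6 HdhQ150 mice were below all wild-type mice. Pde10a, the phosphodiesterase that breaks down cyclic nucleotides in the striatum, was at 11.49, 11.61 and 11.71 against 11.96, 11.96, 12.23, 12.18 and 12.15. It also fell without overlap, by 0.49 (SE 0.0784, limma adjusted p = 0.000659).

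Kcnh4, a potassium channel gene, lay at 8.36 to 8.51 in HdhQ150 mice and 8.74 to 8.97 in wild type and fell by 0.43 (limma adjusted p = 0.000834). Adcy5, the main adenylyl cyclase of the striatum, was at 10.63 to 10.90 against 11.12 to 11.22 and fell by 0.38 (limma adjusted p = 0.0241). Rasgrp2, an activator of Rap proteins, was at 9.10 to 9.43 against 9.59 to 9.93 and fell by 0.41 (limma adjusted p = 0.03). None of these 3 overlapped between groups. Adcy5 missed the threshold without 462 or WT-488 (adjusted p up to 0.0823), and Rasgrp2 without 526, 464, 462, WT-508, WT-488 or WT-461 (up to 0.114). Without WT-454 the differences of Scn4b, Cnr1, Pde10a, Kcnh4, Adcy5 and Rasgrp2 were -0.87, -0.65, -0.54, -0.45, -0.37 and -0.43, and all 6 passed.

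Other members did not pass although their groups did not overlap. Rgs9, which speeds the end of G protein signals at dopamine receptors, differed by -0.44 (limma adjusted p = 0.057), and without WT-454 by -0.47 (adjusted p = 0.0444). Ppp1r1b, which encodes the dopamine-regulated phosphatase inhibitor DARPP-32, differed by -0.27 (limma adjusted p = 0.213). The receptor gene Gpr83 differed by -0.36 (limma adjusted p = 0.0934). Pde1b, another phosphodiesterase gene, differed by -0.25 with overlapping groups (limma adjusted p = 0.246), and the smallest difference of the 27 was -0.018. The list of 30 dopamine receptor and cAMP signalling genes gave 1 lower, Adcy5 (2 without WT-454, Arpp19 being added, and 0 without 462 or WT-488), that of 19 phosphodiesterases 1, Pde10a, and that of 15 cannabinoid and adenosine genes 1, Cnr1, with 0 higher in each.

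Among markers of indirect pathway neurons 3 of 9 fell (0.602% over all genes) and 0 rose, with a list median of -0.12 (-0.10 without WT-454). Penk, which encodes enkephalin, lay at 12.11, 12.23 and 12.46 in HdhQ150 mice and 12.76, 12.66, 12.81, 12.78 and 12.76 in wild type. The groups were separate, and the difference was -0.51 (SE 0.0859, limma adjusted p = 0.00118). Gpr6, an orphan receptor of these neurons, was at 9.98, 10.21 and 10.36 against 10.66, 10.70, 10.76, 10.67 and 10.61. It fell by 0.50 (SE 0.115, limma adjusted p = 0.0254) and its groups did not overlap either. Gpr52, another orphan receptor, was at 9.46, 9.87 and 10.08 against 9.94, 10.38, 10.63, 10.58 and 10.68. Its groups overlapped, since WT-454 lay among the HdhQ150 mice, and it fell by 0.58 (SE 0.144, limma adjusted p = 0.0444). Gpr6 missed the threshold without 464, 462, WT-508, WT-488 or WT-461 (adjusted p up to 0.0881) and Gpr52 without 464, 462, 451, WT-527, WT-508, WT-488 or WT-461 (up to 0.153), and with the mice of the other ages counted 18 mice ended the call of Gpr52 when left out. Leaving out WT-454, the differences of Penk, Gpr6 and Gpr52 were -0.51, -0.52 and -0.71, and all 3 passed. The D2 receptor gene Drd2 lay at 10.96, 11.15 and 11.28 against 11.40, 11.29, 11.53, 11.42 and 11.40. Its groups did not overlap, but its difference of -0.29 did not pass (limma adjusted p = 0.172, 0.12 without WT-454).

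Markers of direct pathway neurons gave 0 of 10 past the threshold, with 5 differences above 0, 5 below and a median of 0.065 (0.019 without WT-454). By unadjusted p under 0.05, 4 of the 10 stood out in limma, against 1790 of all 19938 genes. The D1 receptor gene Drd1 lay at 9.80, 9.92 and 9.99 in HdhQ150 mice and 10.22, 10.15, 10.36, 10.22 and 10.27 in wild type. All HdhQ150 mice were lower, and the difference was -0.33 (SE 0.0936, limma adjusted p = 0.0895). Chrm4, a muscarinic receptor gene, also separated the groups, with a difference of -0.26 (limma adjusted p = 0.0878). Tac1, which encodes substance P, leaned the other way, at 10.73, 11.02 and 11.15 against 10.30, 10.66, 10.79, 10.81 and 10.76. Its groups overlapped and its difference was 0.33 (limma adjusted p = 0.407), 0.23 without WT-454. The dynorphin gene Pdyn lay at 7.84 to 8.37 against 8.19 to 8.60, a difference of -0.14 (limma adjusted p = 0.87) that was -0.054 without WT-454. Of 19 neuropeptide genes Penk was the only one to pass, and of 14 orphan receptor genes of striatal neurons Gpr6 and Gpr52 were. Whether the direct and indirect lists differ from each other was not tested.

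**Figure D3:**
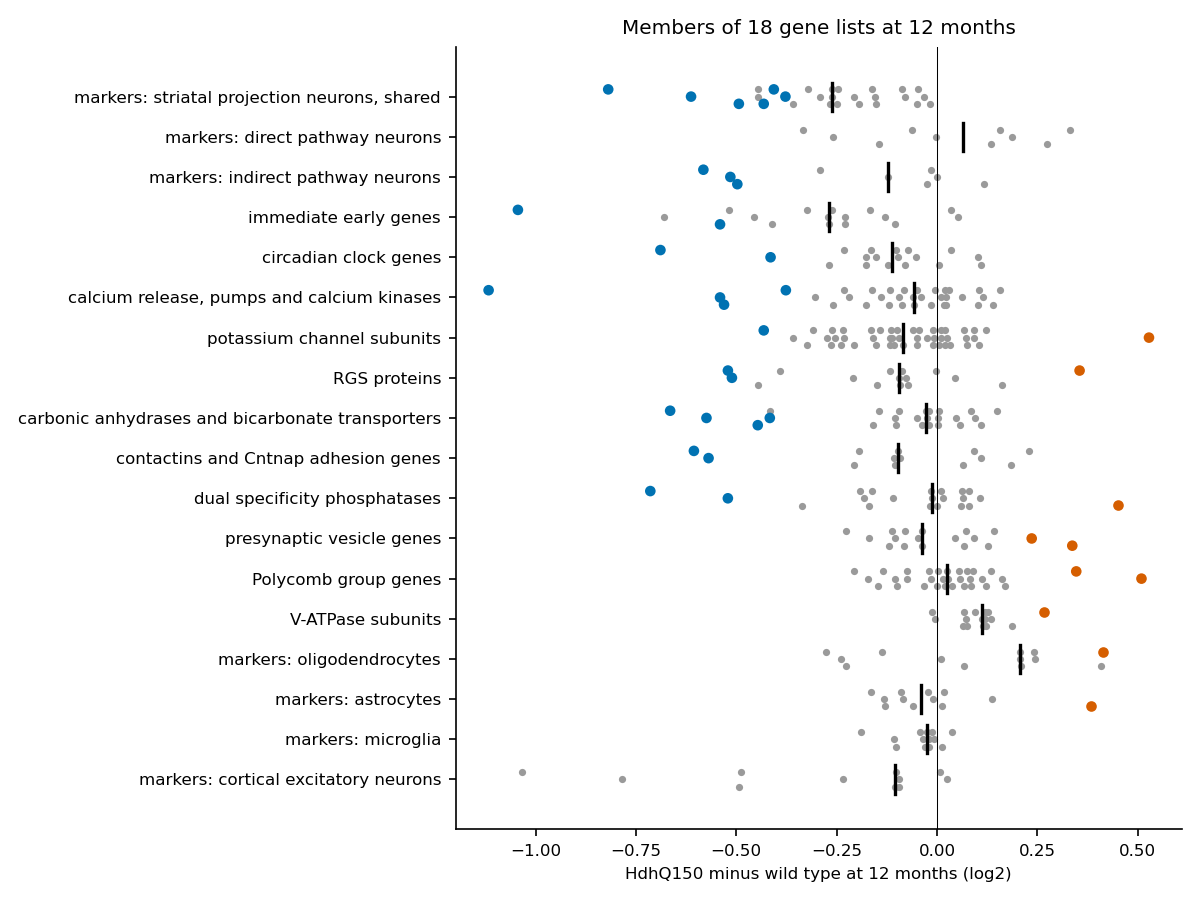
Genotype differences at 12 months (x axis, log2) of the members of 18 gene lists (y axis), one point per gene and a black bar at each list's median. Members past an adjusted p of 0.05 are blue where lower and orange where higher in HdhQ150 mice; the 27 shared markers of projection neurons all lie left of 0.

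Genes that handle calcium held the difference with the smallest p of all. Of 34 genes for calcium release channels, pumps and calcium-dependent kinases 4 fell (0.602% over all genes) and 0 rose. The list median was -0.058 (-0.090 and 6 past without WT-454, Atp2b1 and Ppp3ca being added). Ryr1, a ryanodine receptor, the kind of channel through which stored calcium leaves the endoplasmic reticulum, lay at 7.10, 7.31 and 7.44 in HdhQ150 mice and 8.30, 8.39, 8.38, 8.52 and 8.43 in wild type. The gap between the groups was wider than the range within either. The difference was -1.12 (SE 0.0716, limma adjusted p = 2.57e-11), 2.17-fold. Homer1, a scaffold that links glutamate receptors to calcium stores, lay at 9.01, 9.37 and 9.52 against 9.55, 10.08, 9.83, 10.02 and 10.00. It fell by 0.54 (SE 0.106, limma adjusted p = 0.00707) without overlap. Camk1g, a calcium/calmodulin-dependent kinase gene, was at 7.76 to 8.44 against 8.60 to 8.83 and fell by 0.53 (limma adjusted p = 0.00329), and its groups were separate. Camk4, a nuclear kinase of the same family, was at 8.91 to 9.40 against 9.31 to 9.71, with overlap, and fell by 0.38 (limma adjusted p = 0.0253). Camk4 missed the threshold without 464, 462, WT-527, WT-508 or WT-488 (adjusted p up to 0.0985). Without WT-454 the differences of Ryr1, Homer1, Camk1g and Camk4 were -1.14, -0.62, -0.53 and -0.45, and all 4 passed.

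Ryr1 was also the one gene whose genotype difference passed a test of change, from 6 to 12 months. It stood at -0.34 at 6 months (limma adjusted p = 0.11), -1.12 at 12 months and -0.63 at 18 months (adjusted p = 0.00025). The change from 6 to 12 months was -0.78 (limma adjusted p = 0.00068) and no other gene passed this test (0.00502% of genes, with 1297 at an unadjusted p under 0.05). From 12 to 18 months 0 genes changed (0%, with 412 at an unadjusted p under 0.05 in limma). The 6-to-12-month count was 2 without WT-454 and 1023 together, and 2 without the 6-month wild-type mouse WT-1004.

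Immediate early genes, which neurons switch on within minutes of firing, lay lower in HdhQ150 mice. Of 17 measured 2 fell (0.602% over all genes) and 0 rose, 15 differences were below 0 and the median was -0.27, -0.21 without WT-454. Egr2, a zinc finger factor, was at 7.02, 7.33 and 7.51 against 8.16, 8.44, 8.10, 8.57 and 8.66. The groups were far apart, with a difference of -1.04 (SE 0.157, limma adjusted p = 0.000282), 2.06-fold. Homer1, given above, was the other gene to fall. Nr4a3, an orphan nuclear receptor, lay at 7.85, 7.93 and 8.33 against 8.48, 8.77, 8.35, 8.65 and 8.62. All its HdhQ150 values were below the wild-type ones, yet it did not pass at -0.52 (limma adjusted p = 0.087). Egr1 differed by -0.41 with overlapping groups (limma adjusted p = 0.137). The difference of Egr2 without WT-454 was -1.06 (adjusted p = 0.000784). The groups overlapped in the mean of the list per mouse, centred over the 11 mice, which ran from -0.32 to 0.072 in HdhQ150 mice and from -0.017 to 0.31 in wild type. Markers of cortical excitatory neurons, averaged in the same way, moved with it in some mice. Among wild-type mice both were highest in WT-461, at 0.31 for the immediate early genes and 0.61 for the cortical markers, and among HdhQ150 mice both were highest in 464, at 0.072 and 0.39. Both were low in 453 (-0.22 and -0.55) and 487 (-0.31 and -0.53). The immediate early mean was lowest in 462, at -0.32, where the cortical mean was -0.23. The signs were opposite in 451 (0.018 and -0.086), 526 (-0.16 and 0.13) and WT-508 (0.11 and -0.14). Whether cells that carry the cortical markers had a part in the immediate early values was not tested.

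Of 18 genes of the circadian clock 2 fell (0.602% over all genes) and 0 rose, with a median of -0.11 (-0.16 without WT-454). Ciart is a repressor of the CLOCK and BMAL1 pair, which binds E-boxes. It lay at 7.94, 8.24 and 8.40 in HdhQ150 mice and 8.95, 8.92, 8.86, 8.85 and 9.0 in wild type. The groups did not overlap, and the difference was -0.69 (SE 0.0944, limma adjusted p = 8.28e-05). Per1, a period gene of the same feedback loop, lay at 8.86, 8.98 and 9.29 against 9.37, 9.57, 9.33, 9.45 and 9.62. It fell by 0.41 (SE 0.095, limma adjusted p = 0.0243), without overlap, and missed the threshold without 526, 487, 462, WT-527 or WT-461 (adjusted p up to 0.0888). Without WT-454 Ciart and Per1 differed by -0.66 and -0.43 and both passed. Per2 and Per3 differed by -0.27 and -0.16 and did not pass (limma adjusted p = 0.187 and 0.406). The hour at which the mice were killed is not in the labels, and its part in these genes and in the immediate early genes was not tested.

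The promoters of the 2 clock genes that fell are shown because both hold the letters that the clock factors bind. They were picked for these letters, whose share among the other clock genes was not counted. Each is the 250 bases before the RefSeq start, the first listed where a gene has several, on assembly GRCm38.p6. It is read 5′ to 3′ on the gene's strand. For Ciart this is the minus strand at chr3:95882229-95882478 and for Per1 the plus strand at chr11:69098699-69098948. Capitals mark the E-box CACGTG and, in Per1, the core of the cAMP response element, TGACG.
Ciart: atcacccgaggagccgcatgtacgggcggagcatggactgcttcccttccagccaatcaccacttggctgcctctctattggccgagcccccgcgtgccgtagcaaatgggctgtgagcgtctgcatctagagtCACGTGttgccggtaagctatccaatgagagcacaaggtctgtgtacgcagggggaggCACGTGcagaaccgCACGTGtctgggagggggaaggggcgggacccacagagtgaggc
Per1: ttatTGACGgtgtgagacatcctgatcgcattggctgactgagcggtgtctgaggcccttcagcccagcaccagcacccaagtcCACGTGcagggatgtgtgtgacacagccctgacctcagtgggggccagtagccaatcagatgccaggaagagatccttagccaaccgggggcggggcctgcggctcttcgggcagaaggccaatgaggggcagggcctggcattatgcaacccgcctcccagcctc
The Ciart window holds 3 E-boxes, which begin 116, 58 and 44 bases before the start, and the Per1 window holds 1, at 166. Such a window was at hand for 15614 of the 19938 genes, and 7.03% of these hold a CACGTG. The share was 9.57% of the 94 windows of genes that fell and 7.84% of the 51 of genes that rose. The cAMP response element core TGACG, searched on both strands as were all the motifs, was in 21.6% of all windows, 30.9% of those of genes that fell and 9.8% of those of genes that rose. The whole element TGACGTCA, which contains the core, was in 2.12%, 2.13% and 3.92%. The motif GCGNGGGCG, which EGR factors bind, was in 6.86% of all windows, 10.6% for genes that fell and 13.7% for genes that rose. The TATA box TATAAA was in 11.2% of all windows, in 0 of the 94 and in 3.92% of the 51. These shares are descriptions of letters in windows and were not tested.

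Receptors and G protein regulators changed in single members. Of 16 RGS genes, whose products end G protein signals, Rgs14 and Rgs11 fell and Rgs19 rose. Rgs14 was at 7.45 to 7.95 in HdhQ150 mice and 8.19 to 8.36 in wild type, a difference of -0.52 (limma adjusted p = 0.00118). Rgs11 was at 6.92 to 7.49 against 7.64 to 7.96, a difference of -0.51 (limma adjusted p = 0.00373). Rgs19 went the other way, at 7.88 to 8.18 in HdhQ150 mice and 7.60 to 7.82 in wild type, a rise of 0.36 (limma adjusted p = 0.00231). The groups were separate for all 3, and without WT-454 the differences were -0.54, -0.52 and 0.36. The list median was -0.094, and -0.23 without WT-454, where Rgs9 passed too. Gng3, a gamma subunit of neuronal G proteins, lay at 10.86, 11 and 11.12 in HdhQ150 mice and 10.75, 10.42, 10.70, 10.46 and 10.52 in wild type. It rose without overlap, by 0.41 (SE 0.0612, limma adjusted p = 0.000228), and was 1 of 16 beta and gamma subunit genes to pass.

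Transmitter receptor genes passed in few members. Chrna4, a nicotinic acetylcholine receptor subunit, was at 7.59 to 8.50 against 8.45 to 8.73 with overlap and fell by 0.64 (limma adjusted p = 0.0137), the 1 of 14 acetylcholine receptor genes to pass. Among HdhQ150 mice Chrna4 and the mean of the cortical markers were both highest in 464 (8.50 and 0.39) and lowest in 453 (7.59 and -0.55). Among wild-type mice both were lowest in WT-488 (8.45 and -0.13) and WT-508 (8.45 and -0.14). The order differed in 451 (8.08 and -0.086) and 526 (7.98 and 0.13). Whether cells that carry the cortical markers had a part in the Chrna4 values was not tested. Gabra2, a GABA-A receptor subunit, was at 8.65 to 9.46 against 9.38 to 9.97, again with overlap, and fell by 0.60 (limma adjusted p = 0.0433). It was 1 of 17 GABA genes to pass, and it missed the threshold without 487, 464, 462, 453, WT-527, WT-508, WT-488 or WT-461 (adjusted p up to 0.162), and without any of 15 mice when those of the other ages are counted. Of 21 glutamate receptor genes 0 passed in limma with all mice, with 5 at an unadjusted p under 0.05. Without WT-454 Gria3, Grik2 and Grm3, subunits of AMPA and kainate receptors and a metabotropic receptor, passed at -0.38, -0.41 and -0.26 (limma adjusted p = 0.0265, 0.0315 and 0.0492). Of 21 neuropeptide receptor genes 0 passed in limma with or without WT-454, with 5 at an unadjusted p under 0.05 when all mice were used. Homer1 was the 1 of 19 genes for postsynaptic scaffolds to pass (without WT-454 Anks1b passed too, at -0.31, limma adjusted p = 0.016), and Shank3, another of them, differed by -0.26 (limma adjusted p = 0.069). Without WT-454 Gng3, Chrna4 and Gabra2 differed by 0.45, -0.63 and -0.69 and all 3 passed.

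Channel genes moved both ways. Kcng1, a modifying subunit that is silent alone and alters other voltage-gated potassium channels, lay at 9.27, 9.31 and 9.44 in HdhQ150 mice and 8.94, 8.81, 8.78, 8.74 and 8.74 in wild type. It rose by 0.53 (SE 0.0703, limma adjusted p = 5.64e-05) with a clear gap between the groups. Of 47 potassium channel genes, Kcng1 rose and Kcnh4 fell, and the median was -0.085. Kcnip2 and Kcnq5, members with the next smallest p, differed by -0.29 and -0.31 and did not pass (limma adjusted p = 0.052 and 0.0525), though Kcnq5 passed without WT-454 (-0.39, adjusted p = 0.00835). Of 11 sodium channel genes Scn4b and Scn2b, both auxiliary beta subunits, fell and 0 rose. Scn2b was at 9.55 to 9.89 against 9.79 to 10.20, with overlap, and fell by 0.33 (limma adjusted p = 0.0134). It missed the threshold without 464 or WT-461 (adjusted p up to 0.0573). Tmc3, a member of the transmembrane channel-like family, lay at 6.90, 6.96 and 7.06 in HdhQ150 mice and 6.33, 6.52, 6.46, 6.45 and 6.33 in wild type. It rose by 0.54 (SE 0.0692, limma adjusted p = 3.26e-05) without overlap. With WT-454 left out Kcng1, Kcnh4, Scn2b and Tmc3 differed by 0.57, -0.45, -0.38 and 0.51, and all 4 passed.

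With all mice, the largest difference of any gene that passed was in Gpx6, a member of the glutathione peroxidase family. Its level was 6.56, 6.68 and 6.93 in HdhQ150 mice and 8.03, 8.58, 8.12, 8.17 and 8.16 in wild type. Every wild-type mouse was more than 1 log2 unit above every HdhQ150 mouse, and the difference was -1.49 (SE 0.125, limma adjusted p = 1.24e-08), 2.81-fold. Gpx1, the common form of the enzyme, moved the other way, at 9.21, 9.51 and 9.68 against 9.15, 9.06, 9.11, 9.14 and 9.13. It rose by 0.36 (SE 0.0849, limma adjusted p = 0.0294), with separate groups, and missed the threshold without 464, 462, 451, WT-527, WT-508, WT-488 or WT-461 (adjusted p up to 0.0943). These were the 2 of 27 antioxidant genes to pass, around a list median of 0.016 (0.034 without WT-454). Without WT-454 Gpx6 and Gpx1 differed by -1.49 and 0.38 and both passed.

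Genes for carbonic anhydrases and bicarbonate transporters gave 4 of 25 lower (0.602% over all genes) and 0 higher, with a median of -0.026. Car11, a carbonic anhydrase relative that lacks the enzyme's activity, lay at 10.45, 10.62 and 10.71 against 11.06, 11.10, 11.05, 11.04 and 11. It fell by 0.45 (SE 0.0537, limma adjusted p = 1.86e-05) without overlap. Slc4a11, a membrane transporter of the bicarbonate family, lay at 6.64, 7.0 and 7.26 against 7.64, 7.71, 7.73, 7.58 and 7.67. The groups were separate and it fell by 0.66 (SE 0.091, limma adjusted p = 8.28e-05). Car12, a membrane-bound carbonic anhydrase, was at 8.54 to 8.68 against 8.79 to 9.46 and fell by 0.57 (limma adjusted p = 0.00258), also without overlap. Car2, a cytosolic form rich in oligodendrocytes, was at 9.44 to 9.90 against 9.87 to 10.21, with overlap, and fell by 0.42 (limma adjusted p = 0.0136). Car2 missed the threshold without WT-508 or WT-461 (adjusted p up to 0.0522). Without WT-454 the differences of Car11, Slc4a11, Car12 and Car2 were -0.45, -0.67, -0.68 and -0.51, and all 4 passed.

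Other enzymes and metabolic regulators followed singly. Phex, an endopeptidase of the neprilysin family, lay at 5.86, 6.01 and 6.26 in HdhQ150 mice and 6.34, 7.29, 6.74, 7.30 and 7.08 in wild type. All HdhQ150 mice were lower, by 0.89 in the fit (SE 0.11, limma adjusted p = 2.5e-05), and the other 6 measured members of the family did not pass. Pdp1, the phosphatase that activates pyruvate dehydrogenase, lay at 10.21, 10.47 and 10.50 against 10.92, 11.13, 10.91, 11.07 and 11.11. It fell by 0.59 (SE 0.0764, limma adjusted p = 3.65e-05), the 1 of 13 genes of that enzyme and its regulators to pass. Ddit4l, an inhibitor of the growth kinase mTORC1, was at 6.89 to 7.26 against 7.74 to 8.06 and fell by 0.79 (limma adjusted p = 0.000282), and Plk5, a polo-like kinase relative found in neurons, was at 7.37 to 7.99 against 8.23 to 8.40 and fell by 0.68 (limma adjusted p = 0.000834). Insig1, which restrains cholesterol synthesis, was at 7.90 to 8.26 against 8.35 to 8.91 and fell by 0.52 (limma adjusted p = 0.00342), the 1 of 21 cholesterol genes to pass (without WT-454 Msmo1 passed too, at -0.43, limma adjusted p = 0.0255). The groups were separate for all 5. Without WT-454 the differences of Phex, Pdp1, Ddit4l, Plk5 and Insig1 were -1.04, -0.61, -0.77, -0.70 and -0.60, and all 5 passed.

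Of 16 genes for retinoid receptors and retinoid handling Rbp4, the retinol carrier, fell by 0.48 (7.32 to 7.90 in HdhQ150 mice, 7.57 to 8.44 in wild type; limma adjusted p = 0.0468) with overlapping groups. Dhrs3, a retinal reductase, fell by 0.20 (7.71 to 7.89 in HdhQ150 mice, 7.92 to 8.06 in wild type; limma adjusted p = 0.0463) without overlap. Rbp4 missed the threshold without 526, 464, 462, 451, WT-527, WT-508, WT-488 or WT-461 (adjusted p up to 0.175) and Dhrs3 without 526, 487, 464, 453, WT-527, WT-508, WT-488 or WT-461 (up to 0.134). With the mice of all ages counted, 20 mice of the 29 ended the call of Rbp4 when left out and 23 that of Dhrs3. Of 14 glucocorticoid response genes Per1 and Sgk1 fell. Sgk1, a kinase induced by the hormone, lay at 8.49 to 9.21 against 9.13 to 9.46, with overlap, and differed by -0.44 (limma adjusted p = 0.0264). It missed the threshold without 464, 462, 453, WT-508 or WT-488 (adjusted p up to 0.101). Rbp4, Dhrs3 and Sgk1 differed by -0.61, -0.22 and -0.41 without WT-454 and passed.

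Dual specificity phosphatases, many of which switch off MAP kinases, gave 2 lower and 1 higher of 21. Dusp14 lay at 9.57, 9.74 and 9.85 in HdhQ150 mice and 10.26, 10.65, 10.28, 10.55 and 10.57 in wild type. It fell by 0.71 (SE 0.0986, limma adjusted p = 8.53e-05) without overlap. Dusp18 was at 7.42 to 7.67 against 7.94 to 8.10 and fell by 0.52 (limma adjusted p = 0.000122), also without overlap. Dusp15, an oligodendrocyte phosphatase, was at 7.60, 7.69 and 7.81 against 6.71, 7.55, 7.36, 7.38 and 7.27. It rose by 0.45 (SE 0.0943, limma adjusted p = 0.0115), but WT-454 was its lowest value, and without that mouse the rise was 0.30 (adjusted p = 0.0367). Dusp14 and Dusp18 differed by -0.76 and -0.50 without WT-454.

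Adhesion and matrix genes also changed in both directions. Of 13 contactins and their Cntnap partners, which hold axons and synapses together, 2 fell and 0 rose. Cntnap3 lay at 7.39, 7.58 and 7.78 in HdhQ150 mice and 8.01, 8.24, 8.31, 8.23 and 8.20 in wild type. It fell by 0.61 (SE 0.0754, limma adjusted p = 2.5e-05), and Cntn5, at 7.87 to 8.11 against 8.14 to 8.79, fell by 0.57 (limma adjusted p = 0.00118). Neither overlapped between groups. Abi3bp, an extracellular matrix protein gene, was at 6.97, 7.25 and 7.66 against 7.77, 8.68, 8.25, 8.53 and 8.74. WT-454 was the wild-type mouse nearest to the HdhQ150 mice, and the difference was -1.12 (SE 0.23, limma adjusted p = 0.00954). Fat1, an atypical cadherin, was the 1 of 6 Fat and Dachsous genes to pass and rose by 0.43 (8.11 to 8.45 in HdhQ150 mice, 7.78 to 7.89 in wild type; limma adjusted p = 0.00333). Lrrn3, a leucine-rich repeat membrane protein of neurons, lay at 8.79 to 9.10 against 8.42 to 8.70 and rose by 0.39 (limma adjusted p = 0.00396). The tetraspanin gene Cd82 lay at 9.09 to 9.35 against 8.70 to 8.99 and rose by 0.35 (limma adjusted p = 0.00398). Smoc1, a secreted calcium-binding protein, lay at 7.46 to 7.74 against 6.87 to 7.44 and rose by 0.44 (limma adjusted p = 0.00809). None of these 4 that rose overlapped between groups. Without WT-454 the differences of Cntnap3, Cntn5, Abi3bp, Fat1, Lrrn3, Cd82 and Smoc1 were -0.66, -0.71, -1.34, 0.41, 0.33, 0.30 and 0.53, and all 7 passed.

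Clustered protocadherins, which give neurons surface identities, had 1 of 22 members past the threshold (5 without 462, 0 without WT-454), and WT-454 stood apart in them. Their median was 0.23 with 21 of 22 differences above 0, and 0.14 without that mouse. The mean over the list was -0.52 in WT-454 and -0.071 to 0.078 in the other wild-type mice. It ran from -0.20 to 0.31 in HdhQ150 mice. Pcdhb15 rose by 0.25 (8.03 to 8.32 in HdhQ150 mice, 7.79 to 8.01 in wild type; limma adjusted p = 0.0299), and it missed the threshold without 526, 487, 464, 453, WT-508, WT-461 or WT-454 (adjusted p up to 0.091).

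Sfmbt2 and Polr2a, which act in chromatin and transcription, had small p-values among the genes that rose. Sfmbt2, a Polycomb group gene, lay at 6.98, 7.11 and 7.27 in HdhQ150 mice and 6.57, 6.64, 6.64, 6.58 and 6.53 in wild type. It rose by 0.51 (SE 0.0591, limma adjusted p = 1.18e-05), and both groups were tight and apart. Cbx8, a subunit of Polycomb repressive complex 1, was at 7.23 to 7.47 against 6.84 to 7.25, with overlap, and rose by 0.35 (limma adjusted p = 0.00681). They were the 2 of 32 Polycomb genes to pass, and the list median was 0.026 (-0.024 without WT-454). Polr2a, which encodes the largest subunit of RNA polymerase II, lay at 9.16, 9.20 and 9.29 against 8.45, 8.76, 8.85, 8.76 and 8.84. It rose by 0.48 (SE 0.0614, limma adjusted p = 3.65e-05), with WT-454 the lowest value, and by 0.38 without that mouse (adjusted p = 8.49e-05). The other 12 measured subunits of the polymerase did not pass, and the median of the list was 0.060 (0.029 without WT-454). The kinase Hipk2, which acts on transcription factors, lay at 10.38 to 10.65 against 10.16 to 10.30 and rose by 0.26 (limma adjusted p = 0.00459). The tyrosine kinase Abl1 lay at 8.79 to 8.99 against 8.61 to 8.76 and rose by 0.26 (limma adjusted p = 0.00837), and like Hipk2 it did not overlap. Usp22, the ubiquitin protease of the SAGA coactivator, lay at 10.38 to 10.71 against 10.29 to 10.42, with overlap, and rose by 0.24 (limma adjusted p = 0.00913). The transcription factor gene Onecut2 rose without overlap by 0.49 (9.01 to 9.37 in HdhQ150 mice, 8.61 to 8.82 in wild type; limma adjusted p = 0.039) but missed the threshold when any one of 526, 464, 462, 453, 451, WT-527, WT-508, WT-488, WT-461 or WT-454 was left out (adjusted p up to 0.1). Without WT-454 Sfmbt2, Cbx8, Hipk2, Abl1, Usp22 and Onecut2 differed by 0.49, 0.29, 0.26, 0.25, 0.28 and 0.45.

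A few further genes were named by the size of their difference or their p. Trank1 lay at 9.64 to 9.96 in HdhQ150 mice and 10.00 to 10.50 in wild type and fell by 0.53 (limma adjusted p = 8.53e-05). Traip, a ubiquitin ligase gene, lay at 7.55 to 7.74 against 7.81 to 8.25 and fell by 0.38 (limma adjusted p = 0.000758). Psme1, an activator subunit of the proteasome, lay at 8.15 to 8.41 against 7.85 to 8.14 and rose by 0.30 (limma adjusted p = 0.00913). Lrrc41, a leucine-rich repeat gene, lay at 8.70 to 8.99 against 8.51 to 8.66 and rose by 0.28 (limma adjusted p = 0.00247). The groups were separate for all 4. Abhd1, of the hydrolase fold family, rose by 0.50 (8.11 to 8.40 in HdhQ150 mice, 7.31 to 8.28 in wild type; limma adjusted p = 0.0375) with overlapping groups, and missed the threshold without 487, 464, 462, 451, WT-527, WT-488 or WT-461 (adjusted p up to 0.16). Without WT-454 Trank1, Traip, Psme1, Lrrc41 and Abhd1 differed by -0.63, -0.42, 0.35, 0.27 and 0.55.

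Presynaptic and trafficking genes rose in single members. Of 18 presynaptic vesicle genes Syp, the vesicle membrane protein synaptophysin, rose by 0.34 (limma adjusted p = 0.0138) and Sv2a, another vesicle protein, by 0.24 (limma adjusted p = 0.0203), around a list median of -0.037 (-0.0040 without WT-454). Syp was at 10.68, 10.91 and 11.01 against 10.40, 10.82, 10.50, 10.44 and 10.50, and WT-461 lay among the HdhQ150 mice. Sv2a lay at 10.88 to 11.02 against 10.66 to 10.81, without overlap. Syp missed the threshold without 464 or WT-508 (adjusted p up to 0.0522) and Sv2a without 464, WT-527 or WT-508 (up to 0.0621). Stmn2, a regulator of microtubules in growing axons, was at 10.14 to 10.48 against 9.81 to 10.32, with overlap, and rose by 0.41 (limma adjusted p = 0.00247), the 1 of 19 microtubule genes to pass. Atp6ap1, an accessory subunit of the vacuolar proton pump that acidifies vesicles and lysosomes, lay at 10.97, 11.03 and 11.11 against 10.66, 10.79, 10.87, 10.74 and 10.76. It rose by 0.27 (SE 0.0449, limma adjusted p = 0.0013) without overlap. The other 15 pump genes did not pass, and the list median was 0.11 (0.064 without WT-454). Without WT-454 Syp, Sv2a, Stmn2 and Atp6ap1 differed by 0.29, 0.21, 0.38 and 0.24 and all 4 passed.

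Among glial genes S100b, a calcium-binding protein of astrocytes, lay at 8.30, 8.54 and 8.71 in HdhQ150 mice and 8.24, 8.17, 8.21, 8.05 and 8.07 in wild type. It rose by 0.38 (SE 0.0736, limma adjusted p = 0.0051) without overlap, 0.41 without WT-454. The other 11 of 12 astrocyte markers did not pass and the list median was -0.041 (-0.063 without WT-454). Gfap, the filament gene that reactive astrocytes raise, was at 7.59, 8.05 and 8.16 against 7.63, 7.57, 7.88, 8.04 and 8.11. Its groups overlapped, with a difference of 0.14 (limma adjusted p = 0.939). Apod, a lipid carrier made by glia, was at 11.48 to 11.77 against 11.02 to 11.37 and rose by 0.38 (limma adjusted p = 0.00333), 0.36 without WT-454. Microglia markers gave 0 of 13 past with a median of -0.026 (-0.065 without WT-454), and by unadjusted p under 0.05 in limma also 0.

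The calls among markers of the oligodendrocyte lineage depended on WT-454 and on other single mice. Of 13 markers of oligodendrocytes, the cells that make myelin, Enpp6 was the 1 to pass, at 7.23, 7.50 and 7.63 in HdhQ150 mice and 6.90, 7.06, 6.93, 7.11 and 7.13 in wild type. The groups were separate and it rose by 0.41 (SE 0.0957, limma adjusted p = 0.0266). Olig1, a lineage factor and 1 of 9 precursor markers, lay at 8.73 to 9.07 against 8.30 to 8.71, without overlap, and rose by 0.37 (SE 0.0816, limma adjusted p = 0.0168). Enpp6 missed the threshold without 464, 462, 453, 451, WT-488, WT-461 or WT-454 (adjusted p up to 0.0845) and Olig1 without 464, 462, WT-527 or WT-454 (up to 0.0605). Without WT-454 their differences were 0.35 and 0.26 (adjusted p = 0.0625 and 0.0605), and the median of the oligodendrocyte list went from 0.21 to 0.096. The oligodendrocyte gene Ugt8a and the precursor gene Vcan, not past with all mice, were lower and passed without WT-454. Myelin genes lay on both sides of 0, with Cnp at 0.24, Opalin at 0.41, Mal at -0.23 and Cldn11 at -0.24, and none of these 4 passed (limma adjusted p = 0.191, 0.242, 0.295 and 0.253).

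Besides those already given, several lists had no member past the threshold with all mice. They were the markers of interneurons, cortical and thalamic neurons, microglia, vessels, choroid plexus and ependyma, and the genes for neuronal transcription factors, neurotrophins and their receptors, mitochondrial biogenesis, the respiratory chain, the proteasome, heat shock, interferon response, complement, ribosomal proteins, neuronal calcium sensors and voltage-gated calcium channels. By unadjusted p under 0.05 in limma, 0 to 6 members of each of these lists stood out, against 1790 of all 19938 genes. The count was 6 of 19 voltage-gated calcium channel genes, 6 of 23 neuronal transcription factor genes and 6 of 40 respiratory chain genes. It was 0 for interneurons, thalamic neurons, microglia, vessels, choroid plexus, ependyma, interferon response and complement, in lists of 8 to 15 members. In the other lists it was 1 to 3. Whether these lists differ from all genes was not tested. The proteasome activator gene Psme1, which passed as given above, is not on the proteasome list. Without WT-454 Necab1, a neuronal calcium sensor, Cacna1e, a calcium channel subunit, and Ntrk3, a neurotrophin receptor, were lower and passed at -0.21, -0.24 and -0.22, and the proteasome gene Psmc4 was higher and passed at 0.21 (limma adjusted p = 0.0487, 0.0311, 0.0187 and 0.042). Of the blood markers 1 gene was measured, with a difference of -0.092. The neurotrophin gene Bdnf lay at 6.40, 6.47 and 6.58 against 6.89, 6.57, 6.17, 6.28 and 6.39. The groups overlapped and its difference was -0.0024 (limma adjusted p = 0.999), 0.11 without WT-454. Respiratory chain genes had a median of 0.055 over 40 (0.027 without WT-454), with Atp5b, a subunit of ATP synthase, at 0.20 (limma adjusted p = 0.051) and separate groups. Proteasome genes had a median of 0.068 over 31 that was -0.00080 without WT-454, in which mouse their mean was -0.31. Choroid plexus markers were at 0.40 in WT-454, averaged over the list and centred over the 11 mice, and ependyma markers at 0.27. The highest HdhQ150 values were 0.074 and 0.15. Cortical markers had a median of -0.10 (-0.17 without WT-454), and their mean per mouse ran from -0.55 to 0.39 in HdhQ150 mice and from -0.14 to 0.61 in wild type.

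Of 300 microRNA genes measured 2 passed, and both rose, where 0.938% of all genes passed. The 2 were chosen for naming after their values were seen. Mir365-1 lay at 7.43, 7.52 and 7.73 against 7.32, 7.06, 7.31, 7.19 and 6.96 without overlap. The difference was 0.37 (SE 0.0787, limma adjusted p = 0.0134), and it missed the threshold without WT-527 (adjusted p = 0.0616). Mir382 lay at 8.42, 8.71 and 8.91 against 8.22, 8.35, 8.38, 8.46 and 8.36. WT-508 at 8.46 exceeded the lowest HdhQ150 mouse, and the difference of 0.34 (SE 0.0753, limma adjusted p = 0.0211) missed the threshold without 464, 462, 451 or WT-461 (adjusted p up to 0.0696). Without WT-454 they differed by 0.42 and 0.29 and passed. The products of these genes are shown with the seed, bases 2 to 8, in capitals, from RefSeq on GRCm38.p6. Those of Mir365-1 lie at chr16:13453855-13453877 and chr16:13453895-13453916, and those of Mir382 at chr12:109733781-109733802 and chr12:109733819-109733840, all on the plus strand.
mmu-miR-365-1-5p: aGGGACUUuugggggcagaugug
mmu-miR-365-3p: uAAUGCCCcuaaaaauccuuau
mmu-miR-382-5p: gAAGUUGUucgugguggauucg
mmu-miR-382-3p: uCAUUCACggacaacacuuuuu
No seed is shared among the 4. Whether the probe sets read the mature forms or their precursors is not given in the sources used here.

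The 187 genes were then followed at the other ages, in mice that are not those of 12 months. At 6 months 170 of the 187 (90.9%) had the same sign as at 12 months, against 57.9% of all genes, and at 18 months 181 (96.8%) against 59.7%. At 6 months 5 genes passed (0.0251% of all), and all 5 were among the 187: Gpx6, Phex, Kcng1, Htt and Insig1. At 18 months 27 passed (0.135%), of which 23 were among the 187, all 23 in the same direction. They included Ryr1, Scn4b, Penk, Gpr6, Pde10a, Car11, Car12 and Slc4a11 among genes that fell and Tmc3, Cd82, S100b, Hipk2, Polr2a and Enpp6 among genes that rose. Gpx6 alone passed at all 3 ages, with differences of -1.17 at 6 months, -1.49 at 12 and -1.17 at 18. The genes that rose at 12 months had a median difference of 0.15 at 6 and 0.18 at 18 months, and those that fell -0.17 and -0.22. In 183 of the 187 the difference was smaller in size at 6 months and in 162 at 18 months. The genes were picked by their 12-month values, which enter the comparison of sizes. No gene but Ryr1 passed a test of change, run from 6 to 12 and from 12 to 18 months. The change from 6 to 18 months was not tested.

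Single genes took different courses, given here as values. Scn4b went from -0.51 at 6 months through -0.82 to -0.91 at 18 months, Penk from -0.42 through -0.51 to -0.73 and Enpp6 from 0.34 through 0.41 to 0.76. Kcng1 stood at 0.53, 0.53 and 0.016 at the successive ages. Egr2 was at -0.41, -1.04 and -0.35, Ciart at -0.23, -0.69 and -0.15, and Per1 at -0.046, -0.41 and -0.039. The changes of these 7 genes from 6 to 12 and from 12 to 18 months did not pass in limma. Their change from 6 to 18 months was not tested. Abi3bp was at 0.33 at 6 months, opposite in sign to -1.12 at 12.

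**Figure D4:**
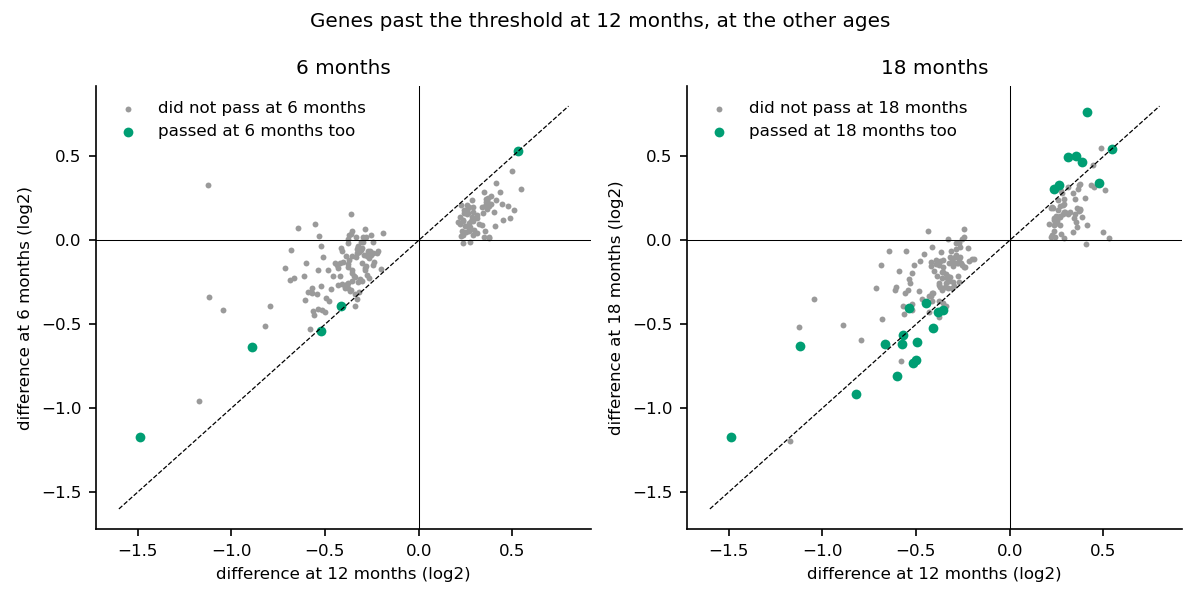
The genotype difference (log2) of the 187 genes past the threshold at 12 months (x axis) against their difference at 6 months (left, y axis) and 18 months (right, y axis), with a dashed line of equal difference. Green points passed at the second age as well, 5 at 6 months and 23 at 18 months, and most points lie closer to 0 there than at 12 months.

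The number of genes past the threshold depended on single mice. Left out in turn, the 12-month mice gave counts from 115 without 462 and 117 without 464 to 169 without 453, with 440 without WT-454. It was 124 without WT-461 and 122 without WT-508 or WT-527, each of these 5 lower counts being more than 1.5 times below 187. Of the 187 genes 83 passed without any one of the mice. With array weights, which gave WT-454 a weight of 0.106, 656 passed, and with only the 12-month arrays in the fit 103, of which 84 were among the 187. In labelled females alone 164 passed, of which 111 were among the 187, and all 187 kept their sign.

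**Figure D5:**
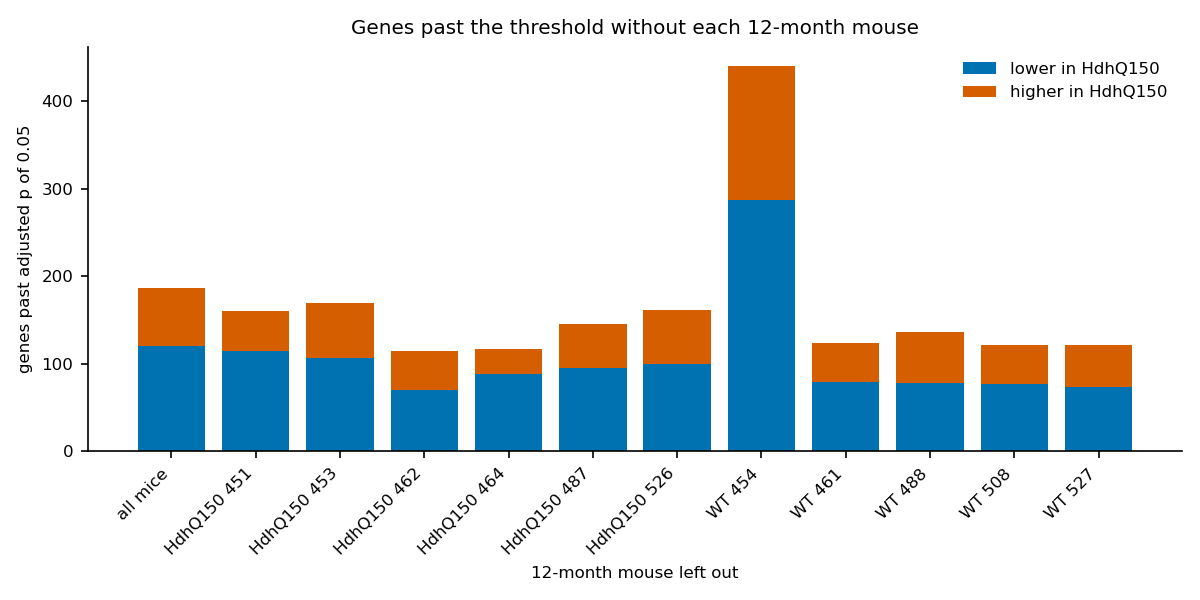
Number of genes past an adjusted p of 0.05 at 12 months (y axis) with all mice and without each 12-month mouse in turn (x axis), lower in HdhQ150 mice in blue and higher in orange. The bar without WT-454 reaches 440 genes, against 187 with all mice.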

How the data were processed

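Caudate nucleus RNA of 29 mice, purified by a TRIzol-chloroform extraction, was biotin-labelled, per the labels' protocols. The authors deposited log2 expression values. Per the submitters' processing notes they used RMA in Affymetrix Expression Console, and neither a version nor its options are stated. The table has 35556 probe sets, of which 21789 carry 1 gene symbol in the platform annotation, 1621 several and 12146 none. Of the 21789, 21698 matched the RefSeq gene table of GRCm38.p6, used for names, and 91 kept the annotation's name. For 999 genes with several probe sets the one with the highest mean was kept, which left 19938 genes, with no filter on dim ones.

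One limma model (version 3.58.1, R 4.3.3) covered the 29 arrays, with a mean for each group, labelled sex as a covariate and an intensity trend in eBayes, leaving 22 residual degrees of freedom. P-values are two-sided and adjusted by Benjamini-Hochberg over all 19938 genes at 0.05. The scripts were tested on simulated data. Each mouse is 1 replicate with its own number, and nothing was paired. The number of arrays limits the precision.

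The text names the 20 genes with the smallest p and the 8 with the largest difference in each direction, 12 set genes of the striatum (Adora2a among them, not analysed here) and, of 59 gene lists, every member that passed and some of up to 4 others. Genes with no proper name were counted but not named. Genes that passed only without mouse WT-454, and the 2 microRNA genes, were named after their values were seen. The members and lists were chosen with earlier results of these data known. A list is described by its counts and its median, with no test.

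Alternatives were all probe sets, the mean of a gene's probe sets, the brighter genes alone, no sex term, females alone, only the 12-month arrays, array weights, robust or untrended eBayes, median centring, mouse 1023 entered as male, and leaving out each mouse in turn.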

Additional observations from a re-analysis of the deposited data

Results flagged for a closer look

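Single mice lay far from the rest of their group in 18 of 234 groups looked at, 2 for each of 117 genes, where chance alone flags about 1 in 20. WT-454 accounted for 8 of them, and some of the genes were looked at because they passed without that mouse. It was the lowest wild-type mouse for Polr2a at 8.45 (the others lay at 8.76 to 8.85), for Trank1 at 10.00 (10.36 to 10.50), and for Kcnq5 at 10.01 (10.29 to 10.38). It was also the lowest for Arpp19 at 10.19 (10.90 to 11), Gria3 at 9.96 (10.49 to 10.57), Strn at 9.87 (10.12 to 10.20) and Vcan at 7.50 (8.0 to 8.15), and the highest for Pdyn at 8.60 (8.19 to 8.30). WT-461 was the highest for Gpx6 at 8.58 (8.03 to 8.17) and for Syp at 10.82 (10.40 to 10.50). WT-488 was the highest for Adcy5 at 11.22 (11.12 to 11.14), and WT-527 for Camk1g at 8.83 (8.60 to 8.67).

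Among HdhQ150 mice 487 was the highest for Dusp18 at 7.67 (7.42 to 7.51), for Smoc1 at 7.74 (7.46 to 7.52) and for Grik2 at 9.78 (9.55 to 9.63). Mouse 462 was the lowest for Pdp1 at 10.21 (10.43 to 10.50) and for Rasgrp2 at 9.10 (9.31 to 9.43), and 451 was the highest for Gja1, the astrocyte gap junction gene, at 9.18 (9.04 to 9.07).

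The genotype difference of Ryr1 differed between ages, with a change of -0.78 from 6 to 12 months (limma adjusted p = 0.00068).

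With all 35556 probe sets tested, 144 passed at 12 months (0.405%), and 17 of these lie outside the genes with 1 symbol. They comprise 14 probe sets with no gene name here, 6 of them higher and 8 lower, and 3 with several gene names.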

How the results depend on the processing

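The count of genes past the threshold was 187 (67 higher, 120 lower). Array weights gave 656 (250 higher, 406 lower). Without WT-454 and 1023 together 167 were higher and 341 lower, and with only the 12-month arrays it was 103 (24 and 79). Labelled females alone gave 36 higher and median centring 40 higher. Leaving out each mouse in turn gave 115 to 440 genes, 29 to 153 of them higher and 70 to 287 lower. Genes whose groups do not overlap numbered 318, 359 to 1549 with a mouse left out, 2139 in females alone and 1549 without WT-454 and 1023. The change from 6 to 12 months passed in 1 to 2 genes with a mouse left out, and in 2 without WT-454 and 1023. Lists with a member past numbered 37, 30 to 41 with a mouse left out. Leaving mice out can only keep or raise the count of genes without overlap. Beyond that, the cause of these shifts was not tested. None of the 73 genes that passed and are named reversed under the 41 settings tried, and 230 of their 2986 values there missed the threshold. Among the other named genes Bdnf changed sign: to 0.13 with array weights, 0.089 in females alone, 0.0026 with 1023 as male, 0.016 with no sex term, 0.11 without WT-454 and 1023, and with a mouse left out, where it ran from -0.067 (WT-488) to 0.11 (WT-454), to 0.0005 (6-month WT-1020), 0.0035 (464), 0.0090 (453) and 0.031 (WT-461). The median of 14 of the 59 lists changed sign without WT-454. No paired analysis was run. Each number stands for 1 mouse and does not say whether mice of different groups were related. Since WT-454 is the only wild-type male of 12 months, its sex and its array cannot be separated, and with 5 and 6 mice small differences can go undetected.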
